A study of Mus musculus with 10 samples.

Results

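The replication-dependent histone genes, 68 of the 23337 genes counted in these libraries, were detected only faintly in every group. They were taken as all genes whose symbol starts with Hist1h, Hist2h, Hist3h or Hist4h, and the symbol also gives the histone type. By type they were 6 linker histone H1 genes, 18 H2A, 19 H2B, 12 H3 and 13 H4 genes. The H2B genes include Hist3h2bb-ps, which is annotated as a processed pseudogene. RNA was sequenced in bulk from mouse embryoid bodies, aggregates of differentiating pluripotent stem cells, of a line named iHA-Etv2. In such lines doxycycline switches on an HA-tagged Etv2, an ETS transcription factor needed for blood and endothelium. The 5 groups had 2 libraries each. Embryoid bodies were left untreated or given doxycycline and taken on day 2 or day 2.5, which gives 4 groups, and the fifth holds Flk1-positive samples of day 2.5 with doxycycline. Kdr encodes Flk1, a VEGF receptor found on the surface of blood and endothelial precursors. The remaining 8 libraries carry a label of not being Flk1-positive, which leaves unsaid whether they were unsorted or sorted as negative. All groups carry the same transgenic line, and no label names the dose or start of doxycycline, or a batch. Nothing in the labels says that the paired libraries came from separate cultures, so the p-values cover the variation among these libraries alone, and that variation may be technical.

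Core histones H2A, H2B, H3 and H4 form the protein spool of the nucleosome, and H1 binds the linker DNA between nucleosomes. The replication-dependent genes lie in clusters and are transcribed mainly in S phase, when new DNA is packed. Their mRNAs are the main animal mRNAs that end without a poly(A) tail. They end instead just after a conserved stem-loop, which is bound by Slbp, and cleavage is guided by the U7 small nuclear RNA with Lsm10 and Lsm11. Selection of RNA by its poly(A) tail therefore removes most of them, except transcripts read through to a poly(A) site further on. The labels give total RNA as the molecule, and the way RNA was selected for sequencing is not given in the sources used here.

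Total counts ran from 18074070 to 36068329 per library. Etv2 averaged 16.9 and 7.04 counts per 1000000 (CPM, on library sizes scaled by edgeR's TMM factors) in untreated samples at day 2 and 2.5. It averaged 455, 263 and 313 CPM in the doxycycline day 2, doxycycline day 2.5 and Flk1-positive samples, where endogenous and transgene reads cannot be told apart. Pou5f1, a pluripotency factor, averaged at least 725 CPM in each group, but the other stem cell and epiblast markers did not hold their level. Sox2, Nanog and Zfp42 averaged 141, 216 and 34.1 CPM in untreated day 2 and 6.39, 2.07 and 6.08 CPM in Flk1-positive samples. Kdr was highest in the Flk1-positive samples at 997 CPM, and the 5 fibroblast markers averaged at most 7.29 CPM in a group. The doxycycline day 2 pair stood apart from the other pairs. The log2 difference between its libraries had a rank correlation of -0.47 with exon length and 0.34 with GC content across 13193 genes. In the Flk1-positive pair the rank correlation with GC content was 0.38. These correlations are across genes, which are not independent replicates.

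The stem-loops are shown first because they define the 3′ end of these mRNAs. The search looked on the sense strand of the annotated transcripts (GENCODE M21, GRCm38, the assembly also called mm10) for a stem of 6 bases that opens with GG, has C or T at the next 2 positions and ends with CT. The loop had to read TTTN or TCTN, followed by the exact reverse complement of the stem. It was found in 46 of the 68 genes (67.6%), against 51 of 21951 protein-coding genes (0.232%), of which 5 were not members (H2afx, H2bfm, Syncrip, Tmem164 and Trim17). The highest-count gene of each type is printed with 5 flanking bases on each side, and capitals mark the stem-loop.
Hist1h1c: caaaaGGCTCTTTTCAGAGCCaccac
Hist3h2a: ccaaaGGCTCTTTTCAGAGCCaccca
Hist3h2ba: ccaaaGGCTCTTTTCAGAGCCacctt
Hist1h3c: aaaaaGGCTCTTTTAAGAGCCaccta
Hist1h4i: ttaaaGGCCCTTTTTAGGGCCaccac
In GRCm38 these 16-base stem-loops lie at chr13:23739512-23739527 for Hist1h1c on the plus strand, chr11:58955172-58955187 for Hist3h2a on the plus strand, and chr11:58949349-58949364 for Hist3h2ba on the plus strand. That of Hist1h3c lies at chr13:23745047-23745062 and that of Hist1h4i at chr13:22040966-22040981, both on the minus strand. All 5 lie in annotated exons of their gene.

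The letters of the stem differed by type. The form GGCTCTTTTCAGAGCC was held by 26 genes of types H1, H2A, H2B and H3, and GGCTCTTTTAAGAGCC by 6 genes of types H1, H2B and H3. Every stem-loop found in an H4 gene belonged to 1 of 4 other forms, namely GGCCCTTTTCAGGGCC in 7 genes, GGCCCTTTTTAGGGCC in 2, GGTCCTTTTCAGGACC in 2 and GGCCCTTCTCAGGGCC in 1. None of those 4 forms was found in another type. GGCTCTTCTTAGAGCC in Hist1h3g and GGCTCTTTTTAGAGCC in Hist2h2ac complete the 8 forms. The 22 genes without a match include models that stop before the 3′ end, so no match says only that these letters are not in the annotated transcript.

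The gene models fall into 3 kinds by where they stop. In 23 genes the model ends within 100 bases of the stem-loop, and in 23 it runs on for more than 100 bases, as it does in Hist1h1c, Hist3h2a, Hist3h2ba and Hist1h4i. Of the longer models, 12 carry AATAAA or ATTAAA, the letters of a poly(A) signal, in their last 40 bases. The median gene of the first kind had 30 counts over all 10 libraries, that of the second 44, and that of the 22 models without a stem-loop 37. Per kilobase of exon the medians were 0.299, 0.111 and 0.323 CPM. The median exon lengths were 485, 1249 and 408 bases, so the order per length follows in part from how the kinds were defined. The kinds also differed in the share of 50-base windows found in another gene's transcript, with medians of 60.4, 24.6 and 84.3%. Whether the stretches past the stem-loop were transcribed was not tested. Over all models, 17 genes had a poly(A) signal in the last 40 bases, with a median of 48 counts, and 51 had none, with a median of 34. Per kilobase the order was the opposite, with medians of 0.145 CPM with a signal and 0.237 CPM without. The same limit of length holds here, since 12 of the 17 genes have a longer model.

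All 68 genes together collected 4915 counts over the 10 libraries, which was 0.00142 to 0.00253% of the counts of a library. No gene of the set reached 5 CPM in any library, and 55 stayed below 1 CPM in all of them. A total of 9 genes had no count anywhere, 37 had counts but fell below the filter on low counts, and 22 passed it. The filter asks for about 0.431 CPM in at least 2 libraries, with CPM taken on library sizes before TMM scaling. A value near the limit can thus differ from the scaled CPM given here. Hist1h2ae and Hist1h4d reached the filter in a Flk1-positive library although their scaled values there lay below it. A gene with no count in a library could still be at 3 counts there, or 0.0824 to 0.164 CPM by library. By type the genes that passed were 4 of 6 H1, 3 of 18 H2A, 7 of 19 H2B, 5 of 12 H3 and 3 of 13 H4. Of the 22, 11 reached the filter in all 5 groups, and Hist1h2bp, an H2B gene, passed only through the untreated day 2 group, so its difference from the other groups follows in part from the filter. Hist1h1b reached it in 3 libraries, all with doxycycline (1 of day 2 and both of day 2.5), and Hist1h2ak in 4, all of day 2.5 (Flk1-positive included), so the same limit holds for their differences between those groups and the others.

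A few genes carried most of the counts. The 5 genes with the highest mean CPM held 35.4% of all counts of the set and the top 10 held 54.2%. The Hist1 cluster on chromosome 13 (21715763 to 23934851, 54 genes) summed to 16.7 CPM averaged over the libraries. The Hist3 cluster on chromosome 11 (58948920 to 58956830, 3 genes) summed to 2.44 CPM, and the Hist2 cluster on chromosome 3 (96219865 to 96270132, 10 genes) to 0.828 CPM. Hist4h4 on chromosome 6 (136801553 to 136804415), the single Hist4 gene, averaged 0.0789 CPM. The small Hist3 cluster thus collected more counts than the Hist2 cluster with its 10 genes. Genes made in the testis were among those at the bottom, with 0 counts of Hist1h1t (linker histone H1t) and Hist1h2ba (an H2B). Hist1h2aa (an H2A) had 2 counts, and all 3 are named here after their values were seen. They did not stand alone there. Hist1h2ao, Hist1h2ap, Hist1h2bq, Hist1h2br, Hist1h4m, Hist2h2aa2 and Hist2h3c2 also had 0 counts, and Hist2h2ab had 1.

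Near-identical copies limit what a low count says. In the median gene of the set, 51.9% of the 50-base windows of the transcript also occur in the transcript of another gene. This share was 89.8% in the 9 genes with no count, 58.0% in the 37 below the filter and 44.2% in the 22 tested. How reads that fit several places were treated is not given in the sources used here, so a low count in a highly shared gene cannot be told apart from reads set aside. Annotated exons also overlap other genes. Those of Hist3h2a are overlapped by Trim17 and Gm44313 over 33.0% of their length, those of Hist1h2ak by the antisense Gm44454 over 35.1%, and those of Hist1h1e by Hist1h2be and Gm11398 over 25.7%. Whether the counting used strand is not given either, so reads of these overlaps cannot be assigned.

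Per kilobase of exon, the replication-dependent genes lay far below the replication-independent histone variants, most of which are made outside S phase as well and from polyadenylated mRNAs. Averaged over 10 libraries, the median gene of the set was at 0.217 CPM per kilobase and the highest, Hist1h4i, at 2.48. The 11 replication-independent variants ran from 12.6 for H2afy (macroH2A) to 263 for H3f3b (histone H3.3), with a median of 32.4. The lowest variant thus lay above the highest replication-dependent gene. H2afx, which can end at a stem-loop or at a poly(A) site and is one of the 5 other genes with the stem-loop, was at 239 CPM per kilobase. Among the 13193 tested genes with a known length the median was 5.49, and 34.8% lay below Hist1h4i. After Hist1h4i came Hist1h3c at 2.38, Hist1h2bk at 1.83, Hist3h2ba at 1.73 and Hist1h2ak at 1.5 CPM per kilobase. Exon lengths come from the annotation, and the ends actually made in these cells were not measured.

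**Figure D1:**
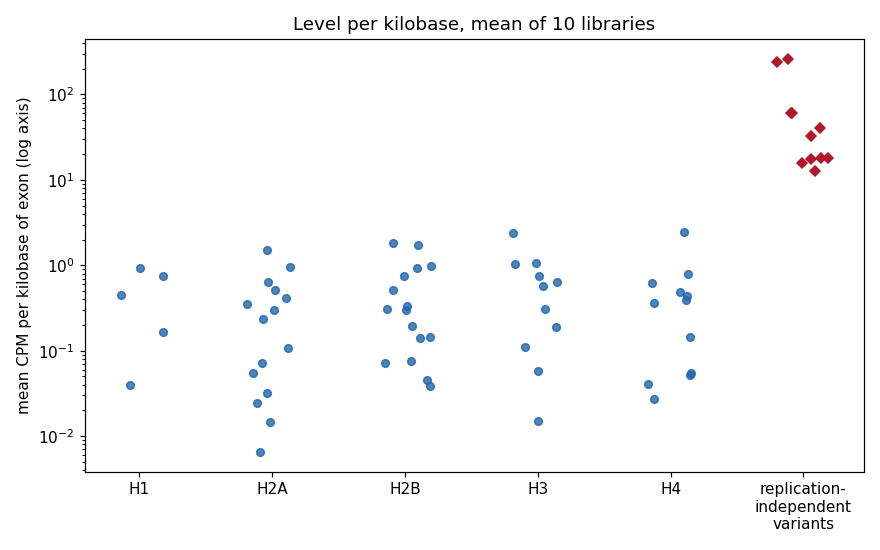
Mean CPM per kilobase of exon over 10 libraries on a log axis, with 1 point per gene, by histone type for the replication-dependent genes (circles) and for the 11 replication-independent variants (diamonds). The 9 genes with no count are not drawn, and every replication-dependent gene lies at or below 2.48, under the lowest variant at 12.6.

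Among linker histones, Hist1h1c (H1.2) had the highest level, a mean of 1.45 CPM over the 10 libraries and 46.6% of the 719 counts of the H1 genes. It was at 1.56 and 1.75 CPM in replicates 1 and 2 of untreated day 2, 3.59 and 1.08 under doxycycline on day 2, and 1.31 and 0.58 in the untreated libraries of day 2.5. Under doxycycline on day 2.5 it was at 0.824 and 1.07 CPM, and in Flk1-positive samples at 1.12 and 1.64. Replicate 1 of doxycycline day 2 was thus above all other libraries, and its partner was not. Hist1h1a, Hist1h1b and Hist1h1e, which encode H1.1, H1.5 and H1.4, averaged 0.559, 0.333 and 0.323 CPM. Hist1h1d (H1.3), with a model of 7425 bases, had 74 counts in all and was below the filter.

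Among H2A genes, Hist3h2a led with a mean of 1.35 CPM. Its values were 1.21 and 1.36 CPM in the untreated libraries of day 2, 1.18 and 0.538 under doxycycline on day 2, 1.31 and 1.70 in the untreated libraries of day 2.5, 1.51 and 1.47 under doxycycline on day 2.5, and 1.90 and 1.32 in Flk1-positive samples. Apart from the low value in doxycycline day 2 replicate 2, all libraries lay between 1.18 and 1.90 CPM. Hist1h2ae was at 0.736 and 0.655 CPM in the untreated libraries of day 2, 0.519 and 0.88 under doxycycline on day 2, 0.435 and 0.829 in the untreated libraries of day 2.5, 0.467 and 1.53 under doxycycline on day 2.5, and 0.33 and 0.424 in Flk1-positive samples. Its Flk1-positive values were below both values of each other group.

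Hist1h2ak was the single gene of the set to pass the test in any comparison. It passed from day 2 to day 2.5 with doxycycline, where 46% of all tested genes were called. It was at 0.217 and 0.218 CPM in the untreated libraries of day 2 and 0.236 and 0.195 under doxycycline on day 2. At day 2.5 it was at 0.392 and 1.37 CPM without and 1.70 and 0.751 with doxycycline, and at 0.289 and 0.53 in Flk1-positive samples. All 6 libraries of day 2.5 were above all 4 of day 2, and the pairs of day 2.5 differed widely within themselves. The gene reached the filter in 4 libraries, all of day 2.5, so its difference between the days follows in part from the filter. With doxycycline it rose by 2.48 ± 0.77 (SE) on the log2 scale from day 2 to day 2.5 (95% interval 0.85 to 4.12, edgeR quasi-likelihood test with Benjamini-Hochberg adjustment, adjusted p = 0.0156). The call was lost without doxycycline day 2 replicate 2 (2.35, edgeR adjusted p = 0.0504) and without doxycycline day 2.5 replicate 1 (1.77, edgeR adjusted p = 0.151), and the adjusted p over all alternatives ran from 0.00611 to 0.151. Without doxycycline the difference between the days was 2.0 ± 0.80 (edgeR adjusted p = 0.0915). The difference between these 2 changes was 0.48 ± 1.16 (interval -1.99 to 2.96, edgeR adjusted p = 0.839), so a dependence on doxycycline was not shown. The gene had 165 counts in all, and 57.0% of its 50-base windows are shared with other genes.

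The H2B genes held 7 of the 22 genes that passed the filter. Hist3h2ba, the highest with a mean of 1.06 CPM, was at 2.38 and 1.36 CPM in the untreated libraries of day 2, 1.04 and 0.538 under doxycycline on day 2, 0.74 and 0.539 in the untreated libraries of day 2.5, 1.02 and 1.30 under doxycycline on day 2.5, and 1.24 and 0.477 in Flk1-positive samples. Both untreated day 2 values were above those of all other libraries. Hist1h2bk was at 0.91 and 0.928 CPM in the untreated libraries of day 2, 0.755 and 0.684 under doxycycline on day 2, 1.31 and 0.829 in the untreated libraries of day 2.5, 1.04 and 0.491 under doxycycline on day 2.5, and 0.826 and 0.954 in Flk1-positive samples, with no group standing clear of the rest. Hist1h2bc was at 1.21 and 1.09 CPM in the untreated libraries of day 2, 1.60 and 1.32 under doxycycline on day 2, 0.914 and 0.539 in the untreated libraries of day 2.5, 0.989 and 0.289 under doxycycline on day 2.5, and 0.578 and 0.159 in Flk1-positive samples. All 4 day 2 values of Hist1h2bc were above all 6 of day 2.5. The genes Hist1h2bj, Hist2h2be, Hist1h2bl and Hist1h2bp averaged 0.234 to 0.454 CPM.

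Hist1h3c, an H3 gene, was the second highest of the set with a mean of 1.5 CPM. It was at 2.47 and 2.07 CPM in the untreated libraries of day 2, 1.65 and 0.586 under doxycycline on day 2, 1.57 and 1.24 in the untreated libraries of day 2.5, 1.32 and 1.13 under doxycycline on day 2.5, and 1.32 and 1.64 in Flk1-positive samples. As with Hist3h2ba, both untreated day 2 libraries were above the other 8. Hist1h3e was at 0.693 and 0.546 CPM in the untreated libraries of day 2, 1.18 and 0.586 under doxycycline on day 2, 0.696 and 0.995 in the untreated libraries of day 2.5, 0.632 and 0.635 under doxycycline on day 2.5, and 0.33 and 0 in Flk1-positive samples. Its Flk1-positive values were the lowest of all libraries. Hist1h3a also had no count in Flk1-positive replicate 2, where a count of 0 allows up to 0.159 CPM.

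Hist1h4i, an H4 gene, had the highest mean of the set at 1.81 CPM, with all libraries between 1.38 and 2.54. Its values were 1.65 and 2.13 CPM in the untreated libraries of day 2, 1.56 and 2.10 under doxycycline on day 2, 1.52 and 1.49 in the untreated libraries of day 2.5, 1.70 and 2.54 under doxycycline on day 2.5, and 1.98 and 1.38 in Flk1-positive samples. Hist1h4d was at 0.433 and 1.04 CPM in the untreated libraries of day 2, 1.09 and 0.538 under doxycycline on day 2, 0.566 and 0.58 in the untreated libraries of day 2.5, 1.04 and 0.866 under doxycycline on day 2.5, and 0.413 and 0.424 in Flk1-positive samples. The Flk1-positive values of Hist1h4d were the lowest of the 10. The 9 H4 genes below the filter each had 54 counts or fewer in all.

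**Figure D2:**
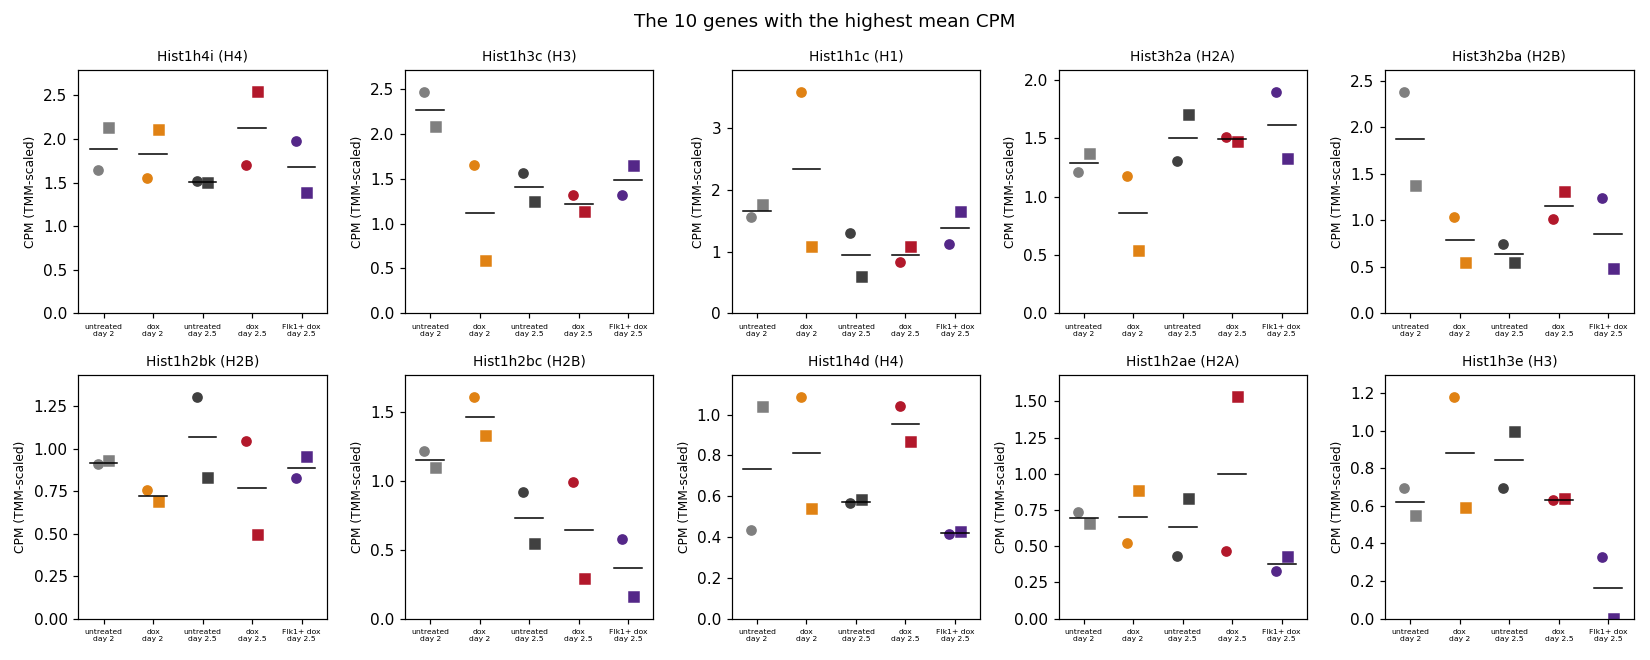
CPM in each library (circles, replicate 1; squares, replicate 2) and group means (lines) for the 10 genes with the highest mean CPM, with the histone type in brackets. Hist1h1c reaches 3.59 in doxycycline day 2 replicate 1, Hist3h2ba and Hist1h3c are highest in the untreated libraries of day 2, and Hist1h3e is lowest in Flk1-positive samples.

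Summed over all 68 genes, the group mean was highest in the untreated libraries of day 2 and lowest in Flk1-positive samples, but the order did not hold library by library. It was 23.0 and 23.7 CPM in the untreated libraries of day 2, 25.3 and 14.7 under doxycycline on day 2, and 20.3 and 20.6 in the untreated libraries of day 2.5. It was 21.0 and 19.4 CPM under doxycycline on day 2.5 and 18.3 and 14.1 in Flk1-positive samples. The group means were 23.4 ± 0.491, 20.03 ± 7.52, 20.4 ± 0.225, 20.2 ± 1.13 and 16.2 ± 2.93 CPM (SD, n = 2). The doxycycline day 2 pair held both the highest library and one below Flk1-positive replicate 1, and the means of all other groups lay within 1 SD of its mean. Without its replicate 2 that group would be the highest, at 25.3 CPM, and without its replicate 1 the lowest, at 14.7. An exact permutation test of 2 libraries against 2 cannot reach 0.05, and these sums are given as a description, without a test. In bulk RNA, fewer cells in S phase and less histone mRNA per cell cannot be told apart.

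The types did not all share that order. H2B summed to 7.06 and 6.77 CPM in the untreated libraries of day 2, above the other 8 libraries, which reached at most 5.81. H3 summed to 6.67 and 5.40 CPM in the untreated libraries of day 2, 6.56 and 2.35 under doxycycline on day 2, 4.57 and 5.10 in the untreated libraries of day 2.5, 4.53 and 3.81 under doxycycline on day 2.5, and 3.01 and 2.33 in Flk1-positive samples. The Flk1-positive values of H3 were below all others except doxycycline day 2 replicate 2. H2A summed to 2.39 to 3.44 CPM in the 4 day 2 libraries, 3.31 and 5.68 in the untreated libraries of day 2.5, 4.39 and 4.51 under doxycycline on day 2.5, and 3.39 and 2.86 in Flk1-positive samples. Without Hist1h2ak, left out after its values were seen, the H2A sum with doxycycline was 2.69 and 2.20 CPM at day 2 and 2.69 and 3.75 at day 2.5. H1 ran from 1.86 to 5.10 CPM and H4 from 2.17 to 4.96 with overlapping groups.

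**Figure D3:**
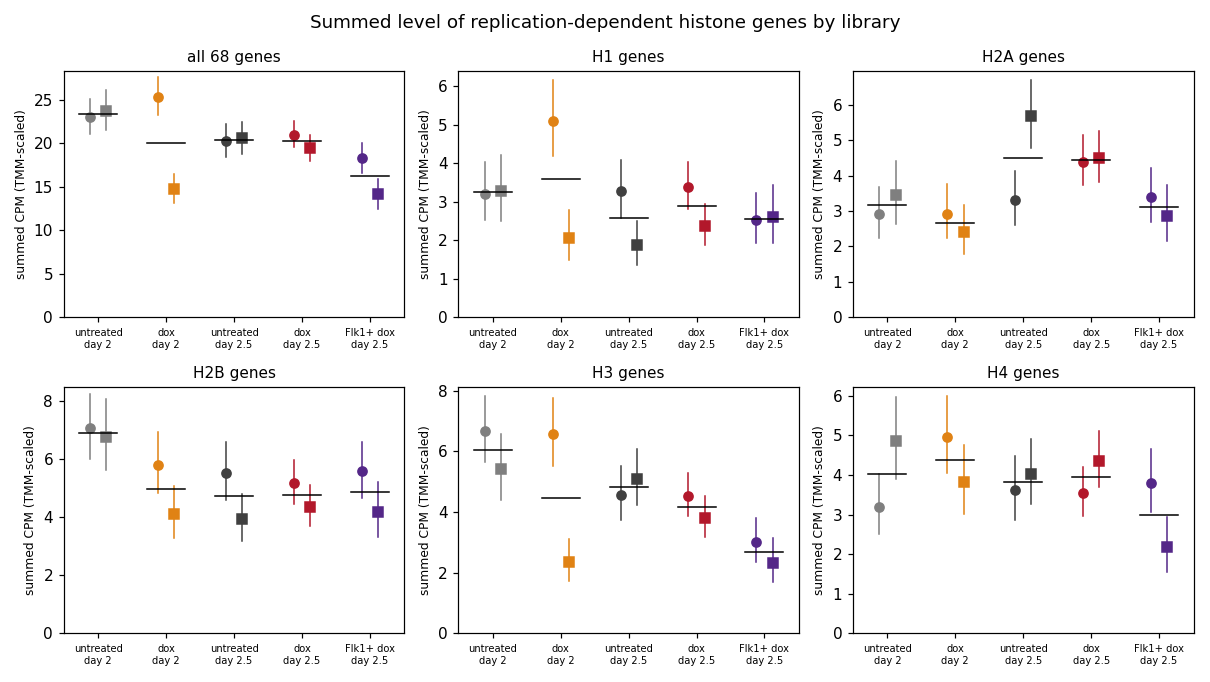
Summed CPM of all 68 genes and of each histone type in each library (circles, replicate 1; squares, replicate 2), with exact 95% Poisson intervals that cover counting error only (vertical lines) and group means (horizontal lines). The doxycycline day 2 pair is apart by more than its intervals for all genes, H1 and H3, and the Flk1-positive pair is lowest in mean for all genes, H1, H3 and H4, with H1 at 2.558 against 2.564 in the next group.

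At day 2, doxycycline-treated samples were compared with untreated ones. Of the 22 genes tested, 0 passed edgeR's quasi-likelihood test after Benjamini-Hochberg adjustment (4.67% of all 14548 tested genes did, 3.11% as higher and 1.56% as lower), 2 had an unadjusted p under 0.05, and DESeq2 called 0. Those 2 were Hist3h2ba at -1.25 ± 0.56 (edgeR adjusted p = 0.271) and Hist1h3c at -1.02 ± 0.47 (edgeR adjusted p = 0.296) on the log2 scale. Each had its own highest values in the untreated libraries of day 2. Hist1h3c passed when doxycycline day 2 replicate 1 was left out (-1.95, edgeR adjusted p = 0.0398). The groups did not overlap in 10 of the 22 genes, against 42.8% of all tested genes. The median log2 difference of the 22 was -0.20, against 0.00 over all tested genes.

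At day 2.5, doxycycline against none called 0 of the 22 genes (29.9% of all tested genes were called by edgeR, 16.1% as higher and 13.8% as lower), 1 had an unadjusted p under 0.05, and DESeq2 called 0. That gene was Hist1h1b, at 0.26 and 0.327 CPM in the untreated libraries of day 2, 0.425 and 0.489 under doxycycline on day 2, 0.087 and 0.249 in the untreated libraries of day 2.5, 0.687 and 0.462 under doxycycline on day 2.5, and 0.0826 and 0.265 in Flk1-positive samples. Its difference at day 2.5 was 1.74 ± 0.78 (edgeR adjusted p = 0.109), and of the 2 groups compared only the doxycycline pair reached the filter. The groups did not overlap in 9 of the 22 genes, against 68.9% of all tested genes. The median log2 difference was 0.07. The sum of all 68 genes differed by less than the spread of the doxycycline pair.

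Flk1-positive samples were compared with the other doxycycline-treated samples of day 2.5, which share the treatment and the day. Here too 0 of the 22 genes were called by edgeR (41.8% of all tested genes were, 20.5% as higher and 21.3% as lower), 2 had an unadjusted p under 0.05, and DESeq2 called 0. The 2 were Hist1h2ak at -1.60 ± 0.70 (edgeR adjusted p = 0.0786) and Hist1h1b at -1.76 ± 0.80 (edgeR adjusted p = 0.0897), which again reached the filter only in the doxycycline pair of the groups compared. Fitted on the compared groups alone, Hist1h2ak passed (edgeR adjusted p = 0.0353). The median log2 difference of the 22 was -0.79, against 0.00 over all tested genes, the largest shift of the 6 comparisons. The difference was negative in 3 of 3 H4, 4 of 5 H3, 2 of 3 H2A, 4 of 7 H2B and 2 of 4 H1 genes. Medians by type were -1.70 for H3, -1.40 for H2A, -0.85 for H4, -0.47 for H1 and -0.40 for H2B. Hist1h1b, Hist1h1e, Hist1h2bj, Hist1h3a and Hist1h3e reached the filter in a doxycycline library of day 2.5 and in no Flk1-positive library. No gene of the 22 did the reverse, so these medians and signs follow in part from the filter. The sum of all 68 genes, taken without the filter, was at 0.803 times the doxycycline level. Hist1h3c, the highest H3 gene, went the other way at 0.27 ± 0.46. The groups did not overlap in 12 genes, against 75.5% of all tested genes.

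From day 2 to day 2.5 without doxycycline, 0 of the 22 genes were called by edgeR (19.5% of all tested genes were, 9.22% as higher and 10.3% as lower), 3 had an unadjusted p under 0.05, and DESeq2 called 0. The 3 were Hist3h2ba at -1.56 ± 0.57 (edgeR adjusted p = 0.0676), Hist1h2ak at 2.0 ± 0.80 (edgeR adjusted p = 0.0915) and Hist1h2bp at -1.96 ± 0.88 (edgeR adjusted p = 0.133). Hist1h2ak reached the filter only in day 2.5 libraries and Hist1h2bp only in untreated day 2. The differences of these genes thus follow in part from the filter. Hist3h2ba passed when either doxycycline day 2 library was left out, with no filter, and with only the compared groups, and Hist1h2ak without untreated day 2.5 replicate 1 and with length and GC trends removed. With doxycycline, 1 of the 22 was called, Hist1h2ak (46% of all tested genes were called, 22.9% as higher and 23.1% as lower), 2 had an unadjusted p under 0.05, and DESeq2 called the same 1. Next came Hist1h1c at -1.30 ± 0.55 (edgeR adjusted p = 0.0637), and this value turned on the doxycycline day 2 pair. It was -0.18 without replicate 1 of that pair (edgeR adjusted p = 0.854) and -1.92 without replicate 2 (edgeR adjusted p = 0.00286). Groups did not overlap in 9 genes without and 7 genes with doxycycline, against 65.7 and 70.2% of all tested genes.

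The interaction of doxycycline and day asked whether doxycycline acted differently at the 2 days. It called 0 of the 22 genes by edgeR (12.1% of all tested genes were called, 6.87% as higher and 5.24% as lower), 1 had an unadjusted p under 0.05, and DESeq2 called 0. That gene was Hist3h2ba at 2.10 ± 0.80 (edgeR adjusted p = 0.102), and it passed without doxycycline day 2 replicate 1 and with length and GC trends removed. These comparisons share libraries, so the values of a gene in several of them are not independent. Replication-dependent genes named above that are neither Hist1h2ak nor among the 10 with the highest mean were chosen after their values were seen.

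Low counts set the precision of all these tests. The median standard error of the log2 difference was 0.67 to 1.0 over the 22 genes, against 0.15 over all tested genes in each comparison of 2 groups and 0.21 in the interaction. The 95% interval reached a 2-fold change in at least one direction for 21 of the 22 genes in each comparison of doxycycline with none and for all 22 in the others. For nearly all of these genes a 2-fold change thus lies inside the interval at this depth, and the tests do not show that levels were alike.

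Genes of S phase entry and DNA replication, a list of 25 that were all tested, followed part of the order of the histone sums. Their summed level was 6692 ± 1.22 CPM in untreated day 2, 6570 ± 20.1 in doxycycline day 2, 6066 ± 8.49 in untreated day 2.5, 5769 ± 84.7 in doxycycline day 2.5 and 4922 ± 42.0 in Flk1-positive samples (SD, n = 2). The replication-dependent histones and these genes both had their highest mean in the untreated libraries of day 2 and their lowest in Flk1-positive samples, at 0.694 and 0.736 times the untreated day 2 level. The replication-independent variants and short genes were lowest in Flk1-positive samples too, at 0.883 and 0.759 times. The pairs did not behave alike, since replicate 1 over replicate 2 of doxycycline day 2 was 1.72 for the histones and 1.004 for the replication genes. In Flk1-positive against doxycycline samples 2 of the 25 rose and 6 fell, among them Ccne1 (cyclin E1) at -0.60 ± 0.08 and Mcm4, a helicase subunit, at -0.57 ± 0.09. Over all tested genes 20.5% rose and 21.3% fell there, so the share of the list that fell was close to the background. The number that fell was 14 when either doxycycline day 2 library was left out and 15 in a fit of the compared groups alone. The 20 G2 and mitosis genes went the other way, with 8 higher and 1 lower, such as Ccnb1 (cyclin B1) at 0.55 ± 0.09, and a sum 1.15 times that of the doxycycline samples. From day 2 to day 2.5 with doxycycline, 1 of the 25 replication genes rose and 13 fell. Over all tested genes 22.9% rose and 23.1% fell. In a fit of the compared groups alone 8 of the 25 fell. The 22 histone genes had a median log2 difference of 0.22 from day 2 to day 2.5 with doxycycline. Without doxycycline, 0 of the 25 replication genes rose and 5 fell between the days. Over all tested genes 9.22% rose and 10.3% fell there, and the histone median was -0.12. Of 7 cyclin-dependent kinase inhibitor genes, 6 were higher with doxycycline than without at day 2.5 and 0 lower. The shares over all tested genes were 16.1 and 13.8%. In Flk1-positive against doxycycline samples the calls went the other way, with 0 of the 7 inhibitor genes higher and 3 lower. Over all tested genes 20.5% were higher and 21.3% lower there.

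Among genes that process histone mRNA or carry histones, the calls were all lower from day 2 to day 2.5 with doxycycline and in both directions in Flk1-positive samples. From day 2 to day 2.5 with doxycycline 0 of 11 genes of histone mRNA processing rose and 3 fell, and 0 of 10 histone chaperone genes rose and 5 fell, against 22.9% higher and 23.1% lower over all tested genes. The processing genes that fell numbered 6 without doxycycline day 2 replicate 1, 1 without doxycycline day 2.5 replicate 1 and 9 with length and GC trends removed, and the chaperone genes 8 without doxycycline day 2 replicate 2, where 1 processing gene also rose. Without doxycycline, 0 of the 11 processing genes rose and 2 fell from day 2 to day 2.5. Among the 10 chaperone genes 2 rose and 5 fell, against 9.22% higher and 10.3% lower over all tested genes. At day 2.5, 3 chaperone genes were lower with doxycycline than without and 0 higher, against 13.8% lower and 16.1% higher over all tested genes. The 3 were 6 with length and GC trends removed. Slbp, the stem-loop binding protein, averaged 164, 184, 138, 137 and 133 CPM in the groups in the order above. It fell by 0.43 ± 0.08 from day 2 to day 2.5 with doxycycline (edgeR adjusted p = 5.58e-04), and differed by -0.04 ± 0.08 between Flk1-positive and doxycycline samples, where replication-dependent histones had their lowest median. Npat, the activator of histone gene transcription at the clusters, passed in no comparison and is named after its values were seen. Between Flk1-positive and doxycycline samples, where 20.5% of all tested genes rose and 21.3% fell, 1 processing gene rose and 2 fell, namely Lsm11 at 0.57 ± 0.14, the endonuclease gene Cpsf3 at -0.29 ± 0.09 and Eri1 at -0.26 ± 0.10. Of the 10 chaperone genes 3 rose and 4 fell there and their sum was 3666 ± 76.8 CPM in doxycycline and 2631 ± 146 in Flk1-positive samples, with Rbbp7, a subunit of several histone-binding complexes, at -1.02 ± 0.09 and Nasp, a carrier of H3 and H4, at -0.64 ± 0.12. Of the 11 replication-independent variants 2 rose and 5 fell, with H2afz (H2A.Z) at 1.04 ± 0.14 and H3f3a (H3.3) at -0.74 ± 0.11. With 1 library left out at a time, 0 to 2 processing genes rose and 0 to 4 fell, 1 to 2 variants rose and 3 to 5 fell, and 0 to 5 chaperone genes rose and 3 to 5 fell. The chaperone genes that rose numbered 0 when any library of the compared groups was left out.

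Small non-coding RNAs that carry no poly(A) tail were set beside the histones as a second class without that tail. The 128 genes of this list, mostly small nucleolar RNAs, summed to 127 ± 13.1 CPM in untreated day 2, 128 ± 35.7 in doxycycline day 2, 95.5 ± 12.8 in untreated day 2.5, 79.7 ± 11.2 in doxycycline day 2.5 and 295 ± 14.4 in Flk1-positive samples. Flk1-positive samples were thus highest for the small RNAs, at 3.70 times the doxycycline level, and lowest for the replication-dependent histones, at 0.803 times. They were also lowest for the replication-independent variants, most of them polyadenylated, at 0.740 times, for replication genes at 0.853 times and for short genes at 0.964 times. Of the 70 tested, 53 rose in Flk1-positive samples, such as Snord2 at 2.90 ± 0.26, and 0 fell, against 20.5 and 21.3% of all tested genes. That count was 35 without doxycycline day 2.5 replicate 2 and 18, with 4 lower, when trends on gene length and GC content were removed. Reads of a small nucleolar RNA and of its host gene's intron cannot be told apart here.

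Inside the doxycycline day 2 pair the histones moved with short genes. Replicate 1 over replicate 2 was 1.72 for the replication-dependent histones, 1.49 for the small RNAs and 1.43 for the 266 other tested genes with under 1 kilobase of exon. The histones are short and rich in GC, with a median exon length of 536.5 bases and 57.8% GC against 4402 bases and 50.1% GC over tested genes. The 22 histone genes that were tested had medians of 716.5 bases and 54.8% GC. In the Flk1-positive pair the same ratio was 1.29 for the histones, 0.933 for the small RNAs and 1.08 for short genes. The part of length, GC content, RNA selection and the cell cycle in the histone values was not tested beyond the fit with length and GC trends removed.

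**Figure D4:**
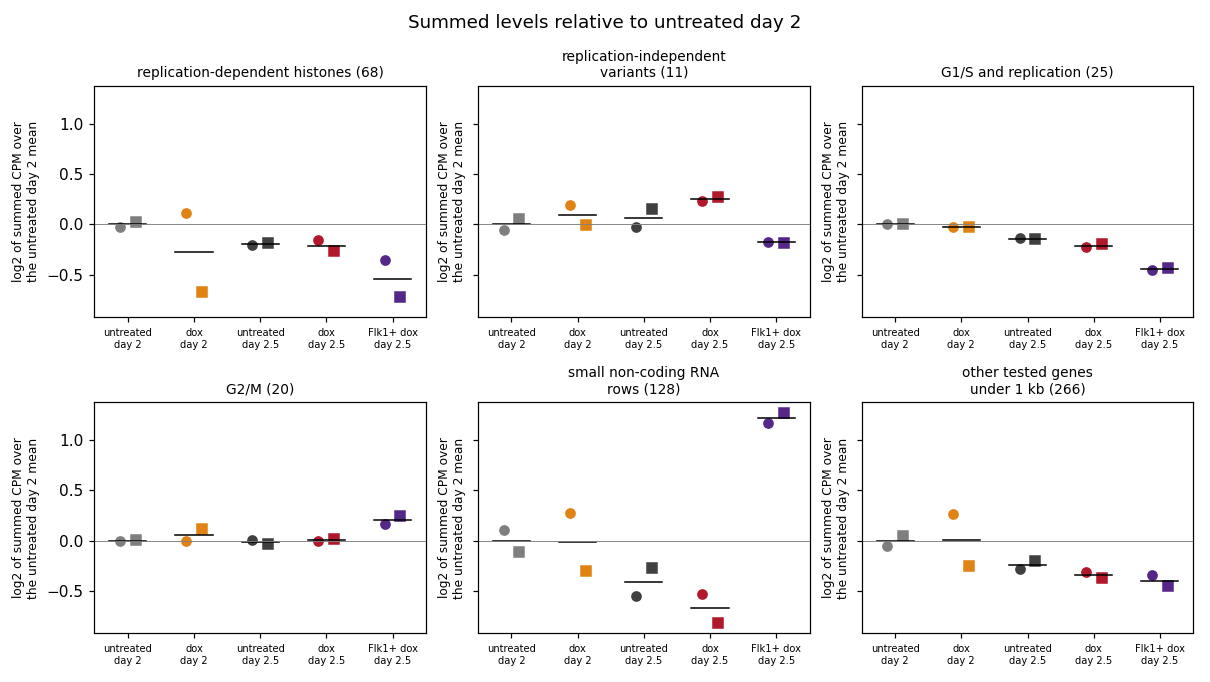
Log2 of the summed CPM over the untreated day 2 mean in each library (circles, replicate 1; squares, replicate 2; lines, group means of the log2 values) for the 68 replication-dependent histone genes and 5 other sets, with the number of genes in brackets. The means of the histones, the replication-independent variants, the G1/S genes and the short genes are lowest in Flk1-positive samples, where small non-coding RNAs and G2/M genes are highest, and the doxycycline day 2 pair splits for histones, small RNAs and short genes but not for G1/S genes.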

How the data were processed

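Bulk RNA-seq counts of 10 libraries were used, 5 groups of 2. The authors deposited unnormalized read counts for each gene. The submitters' processing notes name TopHat, HTSeq and DESeq2 with the mm10 build, and give neither versions nor settings. Of 23429 entries, 92 spike-in rows, all at 0, were left out. Tests used edgeR 4.0.16 under R 4.3.3: filterByExpr (minimum count 10, total 15), TMM scaling and a robust quasi-likelihood fit of 1 mean per group to all 10 libraries (5 residual degrees of freedom), with Benjamini-Hochberg adjustment over the 14548 genes tested and a threshold of 0.05. Standard errors come from the F statistic. Alternatives were DESeq2 1.42.0, median-ratio scaling, no filter, only the compared groups, a replicate block, trends on length and GC content removed, and each library left out, and the script was tested on simulated data. Lengths, positions, stem-loops and shared windows come from GENCODE M21, and all 68 symbols matched. Values in every library were given for the 10 genes with the highest mean CPM and for called genes, and up to 4 genes of other lists with the smallest adjusted p could be named. The genes and lists were chosen with earlier results of these data known.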

Additional observations from a re-analysis of the deposited data

How the results depend on the processing

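Across 192 recomputed counts of called replication-dependent histone genes, 170 stayed within 1.5 times the reported count, 22 did not, and no count exceeded 2. Except for Hist1h2ak from day 2 to day 2.5 with doxycycline, the reported counts were all 0. A count that stayed at 0 was taken as within 1.5 times and any call as outside it. The share within 1.5 times is thus no measure of robustness. No named log2 difference changed sign. With only the compared groups, 1 gene fell in Flk1-positive against doxycycline samples and 1 from day 2 to 2.5 without doxycycline. With no filter, 1 gene fell from day 2 to 2.5 without doxycycline and 2 with it (Hist1h1c and Hist1h4n). With length and GC trends removed, 1 rose from day 2 to 2.5 without doxycycline and 1 in the interaction. With single libraries left out, which lets 28 to 30 of the genes through the filter, the genes lower with doxycycline at day 2 numbered 0 to 1 and those lower in Flk1-positive samples 0 to 2. From day 2 to 2.5 without doxycycline 0 to 1 were higher and 0 to 1 lower, with it 0 to 1 higher and 0 to 2 lower, and in the interaction 0 to 1 higher. In these fits a lone library is assumed to vary like the other groups.

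Replicate numbers did not pair the samples: 1 of 10 pairs of groups had a correlation of deviations above 0.1 (range -0.05 to 0.17). With the replicate block, 1 histone gene was called higher from day 2 to 2.5 with doxycycline and 0 in every other comparison. Median-ratio scaling changed the summed levels by 0.987 to 1.01 times. Counts limit the tests, since 9 of the 68 genes had no count and 37 did not pass the filter on low counts.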
